A study of Mus musculus with 4 samples.

Results

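The genes described here encode surface receptors and activation products of lung macrophages and were chosen by name: Marco, Msr1, Olr1, Cd36, Gpnmb, Spp1, Plet1, Itgax, Atp6v0d2 and Trem2. A probe set, a group of array probes designed against a transcript, was taken for a gene where the platform annotation gave that symbol alone. Of the 10 genes, 9 had such a probe set, with 20 probe sets between them, out of 45101 probe sets and 18194 genes on the array. Spp1 is not analysed here. Lungs of mice of the B6/J strain were compared, 2 wild type and 2 IKKa floxed, with 1 Affymetrix array each. All the mice, wild type included, had been given, through the trachea, a Cre-carrying adenovirus 4 months before the lungs were taken. Cre is a recombinase that excises DNA between loxP sites, and IKKα is a kinase that controls NF-κB transcription factors. The labels give neither the promoter that drove Cre nor the ages of the mice, and the state of the floxed allele was not analysed here. They also do not say that each array is a separate animal, so the spread behind each p-value may be a technical one.

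Alveolar macrophages live on the air side of the alveolus, where they clear inhaled particles, dead cells and surplus surfactant. Scavenger receptors bind modified lipoproteins, bacteria and dust for uptake. Other genes of the group, such as Trem2, Gpnmb and Atp6v0d2, are known from macrophages that handle much lipid or debris. In a whole lung these genes are not limited to macrophages: Cd36 is also made by capillary endothelium, adipocytes and muscle, Plet1 by some epithelial cells and Itgax by dendritic cells. The samples were whole lung, so more cells of a type and more RNA per cell cannot be told apart.

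In the floxed lungs Marco was higher than in wild type, and no gene of the group was lower by the test. Trem2 also passed as higher, but its wild type signal was dim on both arrays. Its call was lost when genes of low level were not filtered out. The RefSeq promoters of Marco and Trem2 are shown because these were the genes that passed. Each sequence runs 5′ to 3′ on the strand of the gene, from 250 bases before the start site to 50 after it, in build GRCm38.p6. The Marco sequence is the minus strand of chr1:120504975-120505274, and the Trem2 sequence is the plus strand of chr17:48346151-48346450. Capitals mark matches to any of 6 motifs searched on both strands.
Marco: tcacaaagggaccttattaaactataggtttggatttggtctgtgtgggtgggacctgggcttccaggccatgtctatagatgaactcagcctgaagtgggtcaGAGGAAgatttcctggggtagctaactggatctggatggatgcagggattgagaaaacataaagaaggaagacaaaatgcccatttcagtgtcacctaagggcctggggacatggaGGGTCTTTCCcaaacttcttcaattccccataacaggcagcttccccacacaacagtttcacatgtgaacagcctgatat
Trem2: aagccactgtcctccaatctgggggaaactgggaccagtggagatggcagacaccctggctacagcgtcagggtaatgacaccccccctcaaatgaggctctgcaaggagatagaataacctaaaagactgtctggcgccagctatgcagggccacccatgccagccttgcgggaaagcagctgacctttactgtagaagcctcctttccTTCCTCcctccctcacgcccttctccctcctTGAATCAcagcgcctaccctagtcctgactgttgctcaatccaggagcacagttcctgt
The motifs were GAGGAA for the myeloid factor PU.1, TGANTCA for AP-1, GGG, any 2 bases and TTTCC for NF-κB, TGACNNNGC for NRF2, TCANGTGA for the MiT/TFE factors and TTCNNNGAA for STAT dimers. In the Marco promoter the capitals are the PU.1 motif and, nearer the start site, the NF-κB motif. In the Trem2 promoter they are the PU.1 motif on the opposite strand and, nearer the start site, the AP-1 motif. RefSeq promoters were matched for 7 of the 9 genes, all but Msr1 and Atp6v0d2. The PU.1 motif was in 3 of the 7 (Marco, Olr1 and Trem2) and in 28.3% of all 32851 promoters of this length. The AP-1 motif was in 5 of the 7 (Gpnmb, Itgax, Olr1, Plet1 and Trem2) and in 7.81% of all. The NF-κB motif was in 1 of the 7, that of Marco, and in 1.63% of all. The NRF2 motif was also in 1 of the 7, that of Itgax, and in 12.4% of all. The MiT/TFE and STAT motifs, present in 4.18% and 8.30% of all promoters, had no match in the 7. None of these matches overlapped another, and a match describes letters in the window, not a binding site.

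Values are deposited intensities, linear signals scaled to the same trimmed mean on each array, and they do not rank different genes by transcript number. The groups were compared with limma on log2(intensity + 16), using for each gene its probe set with the highest mean. The test covered 12736 genes at or above the 30th percentile of level, an intensity of 20.4. Differences are IKKa floxed minus wild type, and a gene rose or fell where its Benjamini-Hochberg adjusted p over all genes tested was under 0.05. All 9 genes passed the level filter, Trem2 through its floxed arrays, since both wild type arrays lay under 20.4.

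Of the 9 genes, 2 rose and 0 fell by limma, while 1.73% of all genes tested passed and 0.997% rose. Trem2, 1 of the 2, was tested only through its floxed arrays and lost its call with no level filter, which left Marco as the 1 gene called. At an unadjusted p under 0.05, 4 of the 9 were higher and 0 lower, against 7.17% and 7.13% of all genes tested. The median log2 difference of the 9 genes was 0.34, and that of all genes tested was 3.2e-05. Leaving out wild type replicate 1 gave the 9 a median of 0.20 and leaving out wild type replicate 2 one of 0.51, and it was 0.24 with a pseudocount of 64 and 0.48 with a pseudocount of 1. The groups did not overlap for 6 genes that were higher in floxed lungs and for 2 that were lower, as was so for 23.6% and 22.1% of all genes tested (45.7% in either direction). Of the 9, 7 lay above 0, as did 50% of all. Only 1 of the 9, Atp6v0d2, had overlapping groups.

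**Figure D1:**
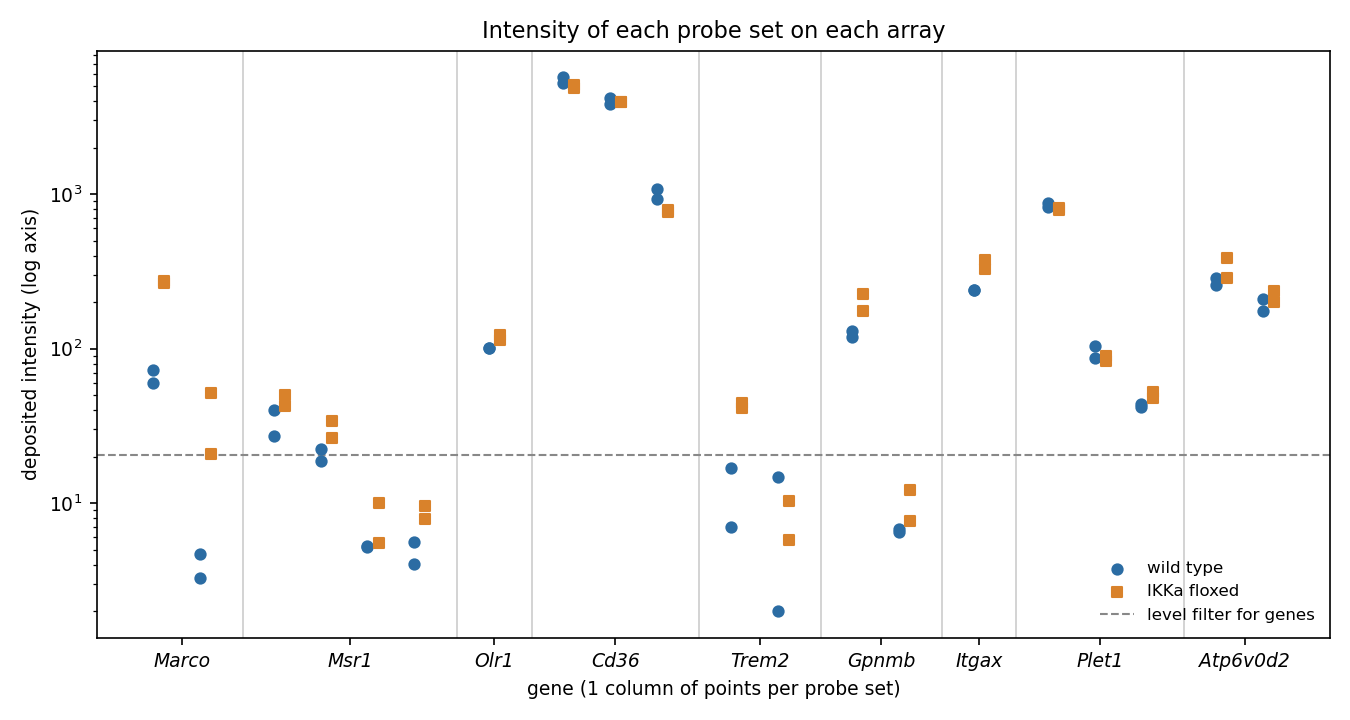
Deposited intensity (log axis) of the 20 probe sets of the 9 genes on each of the 4 arrays, wild type as circles and IKKa floxed as squares, with the level filter for genes (20.4) as a dashed line. Both Marco probe sets lie apart between the groups, from 60.2 and 73.1 to 275 and 267 in the main one, while the Cd36 and Plet1 points lie close together. The groups of the brightest and the dimmest Cd36 probe set still do not overlap.

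Some facts of the whole series touch each comparison. Xist read 22.9 and 31.8 in wild type against 4246 and 4629 in floxed samples, and the Y-linked Eif2s3y read 519 and 530.5 against 3.77 and 6.14, so genotype and sex cannot be told apart here. The 3′ to 5′ signal ratio of control probes rises as RNA degrades. For Gapdh it lay between 1.10 and 1.18 in wild type and between 1.44 and 1.68 in floxed samples. For actin the gap was narrower, with 2.46 to 2.65 in wild type and 2.67 to 2.77 in floxed samples. The part of RNA quality in the results was not tested. Lung tissue was borne out by Sftpc, a surfactant protein of alveolar type 2 cells, at 8743 to 9204 in wild type and 10831 to 13619 in floxed samples. All 8 listed genes of cardiac and striated muscle fell, with a summed intensity of 4143 to 6241 in wild type and 457 to 556 in floxed samples. Mb, 1 of them, read 8.80 and 6.81 in floxed samples, under the level filter, so it was tested only through its wild type arrays. With 2 arrays against 2, an exact permutation test cannot give a p below 0.333, so none is given.

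Marco, a class A scavenger receptor that binds bacteria and unopsonised particles, showed the largest difference of the 9 genes. Its main probe set read 60.2 and 73.1 in the wild type samples and 275 and 267 in the floxed samples. Both floxed samples were high, both wild type samples were low, and the spread inside each group was small beside the gap between them. The mean went from 66.7 ± 9.07 to 271 ± 5.27 (SD, n = 2 each). The log2 difference was 1.80 ± 0.13 SE, or 3.48-fold on the log2(intensity + 16) scale (95% confidence interval 1.49 to 2.11, limma adjusted p = 0.00218), and 0.165% of all genes tested had a higher one. A second Marco probe set, whose suffix s_at marks probes that can match more than 1 transcript, read 3.29 and 4.69 in wild type against 51.7 and 20.8 in floxed samples. It also kept the groups apart, although its floxed samples differed widely from each other. Both its wild type values lay under 12.3, the level filter for probe sets, so it was tested only through its floxed arrays. In a fit over 31526 probe sets, in which 0.552% passed, the main Marco probe set passed (adjusted p = 0.00736) and the second did not (log2 difference 1.32 ± 0.28 SE, adjusted p = 0.159). It was the 1 probe set that passed there among 16 tested for the 9 genes, while 0.298% of all probe sets passed as higher. The groups did not overlap for 9 of the 16 that were higher and 3 that were lower, beside 18.4% and 24% of all probe sets.

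Marco was the gene of the group with the smallest adjusted p, so the genes with the most similar pattern were looked up for it. Likeness was the Euclidean distance between centred log2 profiles over the 4 arrays, and the nearest 5 of all genes tested were Prg2, Cd274, Zbp1, Nlrc5 and Ly9, at distances of 0.191 to 0.235. Cd274, which encodes the checkpoint ligand PD-L1, read 90.2 and 101 in wild type against 387 and 318 in floxed samples (log2 difference 1.72). Nlrc5, the transactivator of MHC class I genes, read 113 and 118 against 446 and 370.1, and Zbp1, a sensor of nucleic acids, read 31.4 and 33.6 against 143 and 126. Prg2, a granule protein of eosinophils, read 4.73 and 7.15 against 73.4 and 58.7. Ly9, a SLAM family receptor of lymphocytes, read 4.48 and 7.53 against 51.1 and 47.2. With 4 arrays such a list says only that these genes were low in the same 2 samples and high in the same 2. The likeness in size depends on the pseudocount of 16: with a pseudocount of 1 the log2 differences were 3.29 for Prg2 and 2.87 for Ly9 beside 2.01 for Marco, and with 64 they were 0.89 and 0.69 beside 1.36. Prg2 and Ly9 were under the level filter on both wild type arrays, so they too were tested only through their floxed arrays.

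Msr1, the other class A receptor of the group, also called scavenger receptor A, had 4 probe sets. The one used for the gene read 27.2 and 40.0 in wild type against 50.02 and 42.8 in floxed samples, so the groups lay just apart. The log2 difference was 0.34 ± 0.16 SE (95% confidence interval -0.04 to 0.72, limma adjusted p = 0.408), and it was 0.15 without wild type replicate 1 and 0.53 without wild type replicate 2. Another Msr1 probe set read 22.4 and 18.8 in wild type against 33.9 and 26.5 in floxed samples, with a difference of 0.33. The remaining 2 were dim, with every array at 10.1 or less and log2 differences of 0.16 and 0.25. All 4 Msr1 probe sets were therefore on the higher side in floxed samples, none past the threshold where tested.

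The lipid receptors Olr1 and Cd36 did not pass. Olr1, the lectin-like receptor for oxidised LDL, has a single probe set, which read 101 and 102 in wild type against 123 and 113 in floxed samples. The groups did not overlap, but the gap was small (log2 difference 0.19 ± 0.12 SE, 95% confidence interval -0.09 to 0.48, limma adjusted p = 0.532). Cd36, which imports long-chain fatty acids, read 5699 and 5238 in wild type against 4845 and 5069.9 in floxed samples on its brightest probe set (-0.14 ± 0.12 SE, interval -0.43 to 0.15, limma adjusted p = 0.664). A second Cd36 probe set read 4170.3 and 3819 against 3932 and 3937, with overlapping groups and a difference of -0.02. The third read 1073 and 929 against 789.6 and 763, with a difference of -0.36 ± 0.15 SE. Its limma p was 0.0487 unadjusted and 0.460 adjusted over all probe sets. The 3 Cd36 probe sets thus lay between -0.36 and -0.02.

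Beside Cd36, the markers of its other sources differed from each other. None of 9 endothelial genes passed by limma, also unadjusted (median log2 difference -0.04, summed intensity 10792 to 11172 in wild type and 11011 to 11706 in floxed samples), and that median ran from -0.12 to 0.07 when single arrays were left out. Of 7 adipocyte genes tested 4 fell, Adipoq, Car3, Fabp4 and Retn, while 0.730% of all genes tested fell. Adipoq and Retn lay under the level filter of 20.4 on both floxed arrays, so they were tested only through their wild type arrays. The 3 that did not pass were Plin4 at -0.44, Cidec at -0.14 and Lipe at 0.05. The summed intensity of the 9 on the array was 1191 to 1542 in wild type and 339.5 to 368 in floxed samples. The brightest in wild type were Car3, at 805 and 586 against 12.9 and 39.1 in floxed samples, and Fabp4, at 389 and 332 against 163 and 148. With no level filter only Car3 of the 4 that fell passed (limma adjusted p = 0.0831 for Adipoq, 0.0644 for Fabp4 and 0.112 for Retn). Adipoq, the adipocyte hormone, read 119 and 69.8 in wild type against 18.6 and 14.5 in floxed samples. Retn, another fat-derived hormone, had a difference of -0.91 (limma adjusted p = 0.0277), which missed the threshold without wild type replicate 1, floxed replicate 1 or floxed replicate 2 (adjusted p = 0.0975, 0.0542 and 0.0634). The part of adipocytes and of muscle in the Cd36 values was not tested.

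Trem2, a receptor for lipids and cell debris that signals through the adaptor Tyrobp, was the second gene that rose. Its main probe set, again of the s_at kind, read 16.8 and 6.97 in wild type against 44.3 and 41.2 in floxed samples. The floxed samples were close together and clearly above both wild type samples, which were dim and unlike each other. The mean went from 11.9 ± 6.93 to 42.7 ± 2.18 (SD, n = 2 each), with a log2 difference of 1.10 ± 0.18 SE (95% confidence interval 0.66 to 1.53, limma adjusted p = 0.0418). The call was lost without wild type replicate 2 (adjusted p = 0.0888), without floxed replicate 1 (0.0952), without floxed replicate 2 (0.0705) and with no level filter (0.153). Because the wild type level was near the bottom of the scale, the size depended on the pseudocount, at 1.88 with a pseudocount of 1 (adjusted p = 0.143) and 0.50 with 64 (adjusted p = 0.0340). The second Trem2 probe set read 2.00 and 14.8 in wild type against 10.3 and 5.80 in floxed samples, all dim and overlapping, with a difference of 0.02. The rise of Trem2 therefore rests on 1 of its 2 probe sets, which did not pass in the fit over all probe sets (adjusted p = 0.105).

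Of 17 tested genes of Trem2 signalling and lipid handling, 0 rose and 0 fell by limma, and the median log2 difference was 0.25. At an unadjusted p under 0.05 by limma, 6 were higher and 0 lower, against 7.17% and 7.13% of all genes tested. Of the 17, 15 lay above 0, as did 50% of all. Lpl, the lipoprotein lipase, read 2015 and 2044 in wild type against 2814 and 2873 in floxed samples (0.48 ± 0.12 SE, limma adjusted p = 0.119), and it passed with a pseudocount of 64 (0.0276) and with the robust, intensity-dependent prior (0.0148). Cst7, a cystatin of lysosomal protease control, read 23.4 and 17.4 against 40.2 and 35.2 (0.57, adjusted p = 0.124), and Plin2, a coat protein of lipid droplets, 879.6 and 856 against 1200.5 and 1123 (0.41, adjusted p = 0.180 by limma). Tyrobp itself, named here after its values were seen, read 1053 and 1077 in wild type against 1774 and 1299.9 in floxed samples (0.51 ± 0.17 SE, limma adjusted p = 0.239). Each of these 4 genes was higher in both floxed samples than in both wild type samples, as were 23.6% of all genes tested.

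Gpnmb, a lysosomal and surface glycoprotein induced in lipid-laden macrophages, did not pass. Its bright probe set read 119.6 and 130.2 in wild type against 227 and 175 in floxed samples. Both floxed samples were above both wild type samples, and they differed from each other by more than the wild type samples did. The log2 difference was 0.61 ± 0.15 SE (95% confidence interval 0.25 to 0.98, unadjusted p = 0.00535, limma adjusted p = 0.131), and 2.12% of all genes tested had a higher one. The second Gpnmb probe set was dim, at 6.47 and 6.80 against 12.2 and 7.72, with a difference of 0.19.

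Atp6v0d2, the d2 subunit of the proton pump that acidifies lysosomes, had overlapping groups on both its probe sets. They read 257 and 286 in wild type against 386 and 285 in floxed samples, and 175 and 209.7 against 235 and 201. Floxed replicate 1 was the high sample on both, and without it the difference on the first fell to 0.07 from 0.28 ± 0.17 SE (limma adjusted p = 0.522 with all arrays, 0.871 without it). None of 16 other subunits of the same pump passed by limma (median 0.09), and 13 of them lay above 0, as did 50% of all genes tested. At an unadjusted p under 0.05 by limma, 2 of the 16 were higher and 0 lower, against 7.17% and 7.13% of all. Atp6v1g1, of the catalytic part of the pump, had the highest moderated t among them, at 3566 and 3211 in wild type against 4626 and 4525 in floxed samples (0.43, limma adjusted p = 0.176, but 0.0298 with the robust, intensity-dependent prior). None of the 4 MiT/TFE factors, which switch on lysosome genes, passed by limma (1 at an unadjusted p under 0.05), and Tfe3 stood highest at 0.31 (limma adjusted p = 0.316).

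Itgax, the integrin chain CD11c of alveolar macrophages and dendritic cells, has 1 probe set, which read 240.1 and 239 in wild type against 373 and 327 in floxed samples. The wild type samples were nearly equal and both floxed samples were higher. The log2 difference was 0.52 ± 0.13 SE (95% confidence interval 0.22 to 0.82, unadjusted p = 0.00493, limma adjusted p = 0.124), and the gene passed once the prior was made robust and allowed to follow intensity (adjusted p = 0.0475). Itgb2, the beta chain that pairs with Itgax, read 448 and 530.1 in wild type against 889 and 732 in floxed samples (0.71 ± 0.15 SE, limma adjusted p = 0.0891), and it passed with a pseudocount of 64 (0.0170) and with the robust, intensity-dependent prior (0.0122). Over all genes tested, 50% lay above 0 and 0.997% rose. Of the 5 leukocyte integrin genes and ligands tested, all 5 lay above 0 (median 0.60) and 1 rose. It was Itgb7, the beta chain of gut-homing and intraepithelial lymphocytes, at 40.3 and 34.1 against 104 and 75.5 (0.98 ± 0.16 SE, limma adjusted p = 0.0426). Itgb7 missed the threshold without wild type replicate 2 (0.118) and without floxed replicate 1 (0.0715).

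Plet1, a surface protein of alveolar macrophages and some epithelial progenitors, did not pass and its 3 probe sets pointed in different directions. The brightest read 826 and 871 in wild type against 785 and 818 in floxed samples (-0.08 ± 0.12 SE, 95% confidence interval -0.36 to 0.20, limma adjusted p = 0.817). Another read 41.8 and 44.1 against 52.8 and 47.8, a difference of 0.17 with groups that did not overlap. The third read 87.6 and 104 against 89.3 and 83.5, a difference of -0.12 with overlapping groups. None of the 3 Plet1 probe sets passed. Beside it, 4 of 7 airway secretory genes fell (Bpifa1, Bpifb1, Muc5b and Scgb3a1), while 0.730% of all genes tested fell. That count was 1 of 7 with a pseudocount of 1, 2 of 8 with no filter and 2 of 7 with the robust, intensity-dependent prior. The others did not pass, with Scgb1a1 at 0.30, Cyp2f2 at 0.12 and Scgb3a2 at -0.14. The summed intensity of the 8 on the array overlapped, at 39618 to 41243 in wild type and 34687 to 42069.5 in floxed samples. Of 9 alveolar epithelial genes 0 passed (median 0.10), with 2 higher at an unadjusted p under 0.05, against 7.17% of all genes tested. The part of epithelium in the Plet1 values was not tested.

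**Figure D2:**
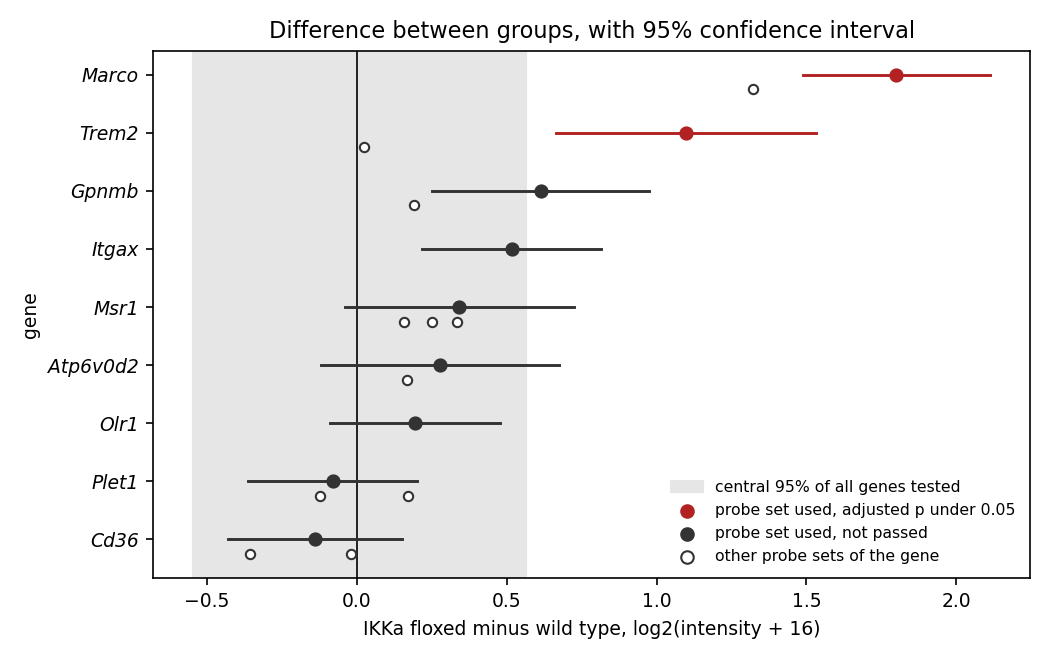
Difference between the groups for each of the 9 genes, as IKKa floxed minus wild type on the log2(intensity + 16) scale, with its 95% confidence interval, the other probe sets of each gene as open points, and the central 95% of all genes tested shaded (-0.55 to 0.56). Marco at 1.80 and Trem2 at 1.10 lie outside the shaded range with their whole interval, Gpnmb lies just outside it at 0.61 with an interval that reaches into it, and the open Trem2 point is at 0.02.

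The other genes that mark alveolar macrophages were compared beside the 9. All 14 identity genes on the array passed the level filter, 1 rose, 0 fell and 10 lay above 0, as did 50% of all genes tested. The median log2 difference was 0.19, and 0.12 to 0.25 when single arrays were left out. At an unadjusted p under 0.05 by limma, 3 were higher and 0 lower, against 7.17% and 7.13% of all genes tested. The groups did not overlap for 9 that were higher and 2 that were lower, against 23.6% and 22.1% of all. The summed intensity of the 14 was 19473 to 19573 in wild type and 22210.1 to 22778 in floxed samples. Siglecf, the lectin by which alveolar macrophages are sorted, read 118 and 127 in wild type against 138 and 142 in floxed samples (0.18 ± 0.12 SE, 95% confidence interval -0.11 to 0.46, limma adjusted p = 0.568). Pparg, the transcription factor of their lipid programme, stood at 0.19 (adjusted p = 0.562), Car4 at 0.25 (0.411), Fabp5 at -0.16 (0.613) and Mrc1 at -0.07 (0.832), all by limma. Chil3, a chitinase-like secreted protein, read 4742 and 5076 against 7224 and 7193 (0.55, limma adjusted p = 0.0893), and it passed with a pseudocount of 64 or with the robust, intensity-dependent prior. Lpcat2, an enzyme of phospholipid remodelling, was the 1 that rose (0.92 ± 0.15 SE, limma adjusted p = 0.0420). Its call was lost with the replicate number as a block (adjusted p = 0.0641) and without wild type replicate 1 (0.0997), wild type replicate 2 (0.0828) or floxed replicate 1 (0.0715).

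GM-CSF is the cytokine that alveolar macrophages need, and Csf2rb encodes the signalling chain of its receptor. Csf2rb read 231 and 265 in wild type against 452 and 405 in floxed samples (0.75 ± 0.13 SE, limma adjusted p = 0.0490), and it was the 1 of 11 genes of this list that passed (median 0.03, with 6 above 0). That median was 0.19 without floxed replicate 1 and -0.02 without floxed replicate 2. The call was lost whichever array was left out (adjusted p = 0.0584 to 0.201) and with the replicate number as a block (0.0924). Csf2rb2, the closely related chain for interleukin 3, stood at 0.37 (limma adjusted p = 0.273), and these genes are near-identical copies, so their probes may share signal. Spi1, which encodes PU.1, read 23.96 and 42.4 against 50.9 and 51.0 (0.47, limma adjusted p = 0.326).

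Scavenger receptors outside the group moved both ways. Of 16 tested, 1 rose and 3 fell (median 0.17, but 0.08 without wild type replicate 2 and 0.07 without floxed replicate 2), while 0.730% of all genes tested fell. Clec7a, the beta-glucan receptor dectin-1, read 735 and 725 in wild type against 1984 and 1318 in floxed samples (1.13 ± 0.20 SE, limma adjusted p = 0.0473). Cd163, the haemoglobin receptor of tissue macrophages, read 115 and 108 against 58.2 and 37.7 (-1.01 ± 0.17 SE, adjusted p = 0.0461 by limma). The class A relatives Scara5 and Scara3, which are made mainly by stromal cells, fell by 1.09 and 0.97 on the log2 scale (limma adjusted p = 0.0203 and 0.0266). Leaving out 1 array ended the calls of Clec7a (without wild type replicate 1, wild type replicate 2 or floxed replicate 1, adjusted p = 0.0623, 0.0828 and 0.0511), Cd163 (without wild type replicate 1, wild type replicate 2 or floxed replicate 2, adjusted p = 0.0880, 0.0776 and 0.0583) and Scara3 (without wild type replicate 2 or floxed replicate 2, adjusted p = 0.0973 and 0.0584). Scara3 also missed the threshold with the replicate number as a block (0.0562). Among 11 genes of apoptotic cell uptake, 0 passed by limma, also unadjusted (median 0.13), with Axl, a receptor tyrosine kinase that shares this role, at 0.26 (limma adjusted p = 0.406).

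Markers of other leukocytes that share these genes were also compared. Among 10 monocyte and interstitial macrophage genes 2 rose and 1 fell (median 0.43), beside 0.997% and 0.730% of all genes tested. At an unadjusted p under 0.05 by limma, 6 of the 10 were higher and 1 was lower, against 7.17% and 7.13% of all genes tested. The summed intensity of the 10 was 4575 to 4619 in wild type and 5343 to 6149 in floxed samples. C1qb, a complement component of interstitial macrophages, read 319 and 245 against 561 and 508 (0.89 ± 0.16 SE, limma adjusted p = 0.0483), and Fcgr1, a high-affinity receptor for IgG, read 41.0 and 43.4 against 125 and 85.2 (1.04 ± 0.18 SE, adjusted p = 0.0441 by limma). C1qb missed the threshold without wild type replicate 2 (0.175), floxed replicate 1 (0.105) or floxed replicate 2 (0.0669). Fcgr1 missed it without wild type replicate 1 (0.0775), wild type replicate 2 (0.0747) or floxed replicate 1 (0.0589), and with the replicate number as a block (0.0574). F13a1, a transglutaminase of monocytes and tissue macrophages, fell from 238 and 253 to 108 and 94.1 (-1.16 ± 0.13 SE, limma adjusted p = 0.00847).

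None of 9 dendritic cell genes passed by limma (median 0.36, summed intensity 722 to 799 in wild type and 896 to 927 in floxed samples). At an unadjusted p under 0.05 by limma, 3 of them were higher and 0 lower, against 7.17% and 7.13% of all genes tested. Of 8 neutrophil genes on the array 4 passed the level filter, and S100a8 (-0.31), S100a9 (-0.38) and Csf3r (-0.06) had overlapping groups and did not pass. The summed intensity of the 8 was 890 to 1093 in wild type and 567 to 969 in floxed samples. The 1 that fell was Ltf, which encodes lactoferrin (-1.08, limma adjusted p = 0.0448). It missed the threshold without wild type replicate 1 (0.0828), floxed replicate 1 (0.0806) or floxed replicate 2 (0.0930). Of 5 lymphocyte genes tested, 4 were higher and 1 was lower at an unadjusted p under 0.05 by limma, beside 7.17% and 7.13% of all. By adjusted p 2 rose, the T cell receptor component Cd3g (0.89, limma adjusted p = 0.0431) and the granule protein Nkg7 (1.22, limma adjusted p = 0.0260). Without wild type replicate 2 or floxed replicate 1 neither passed (Cd3g adjusted p = 0.161 and 0.0983, Nkg7 adjusted p = 0.0567 and 0.0634), and Cd3g also missed the threshold without floxed replicate 2 (0.0584). Ms4a1, the B cell antigen CD20, named after its values were seen, lay the other way, at 219 and 249.1 in wild type against 201 and 140.5 in floxed samples (-0.44 ± 0.18 SE, unadjusted p = 0.0447, limma adjusted p = 0.333). The lymphocyte genes had a summed intensity over the 7 on the array of 710.4 to 804 in wild type and 908 to 1267 in floxed samples. The part of monocytes, dendritic cells and lymphocytes in the values of Marco, Trem2 and Itgax was not tested.

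**Figure D3:**
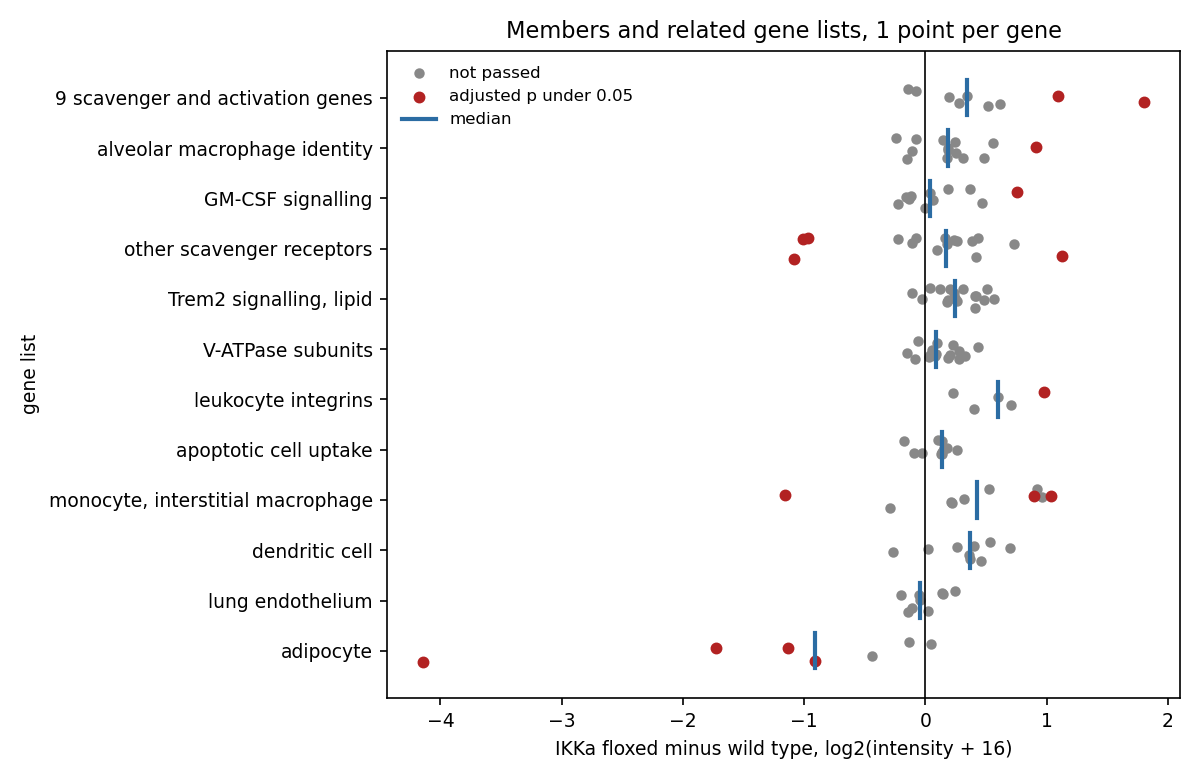
Log2 difference (IKKa floxed minus wild type) of each tested gene in the 9-gene group and in 11 related lists, with genes past an adjusted p of 0.05 in red and the median of each list as a blue bar. The 9 genes have a median of 0.34, beside 0.19 for alveolar macrophage identity genes, 0.43 for monocyte and interstitial macrophage genes and -0.91 for adipocyte genes.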

How the data were processed

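RNA of 4 mouse lung samples had been hybridised to 1 single-colour array each, per the labels' protocols. Each array has 1 deposited linear intensity for each probe set, made by the authors with Affymetrix Expression Console, per the submitters' processing notes; its version, the signal algorithm and the genome build were not given in the sources used here. The trimmed mean (2% at each end) was 150.001 on every array, so values were scaled before deposit, and medians were 32.1 to 34.3. The number of arrays limits the precision. Gene symbols came from the platform annotation (34958 with 1 symbol, 932 with several, 9160 not listed, 64 controls); 34754 matched RefSeq GRCm38.p6 by Entrez number and 0 symbols changed.

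Groups came from the titles. Values were taken as log2(intensity + 16), so fold changes of low genes are understated, and tested in R 4.3.3 with limma 3.58.1 (lmFit, eBayes, two-sided, no covariates; 2 residual and 4.78 prior degrees of freedom). Genes under the 30th percentile of mean log2 level were left out. The limma step alone was tried on simulated normal log2 values drawn from its own fitted prior. There 5.75% of 1.5-fold, 75.1% of 2-fold and 98.9% of 4-fold changes were recovered, and 4.65% of calls were false. A gene that did not pass may therefore still differ by 1.5-fold. The level filter, the pseudocount, dim signals and the choice of probe set were not simulated, so their effect was not tested there. The same fit over probe sets used a filter at an intensity of 12.3. The titles share replicate numbers, but same-numbered samples did not deviate together (correlation -0.000295 across genes), so no pairing was used. Members, lists and settings were chosen with earlier results of these arrays known, and the alternatives for genes outside the group were added after seeing the data. Named from each list were called genes, up to 6, otherwise up to 3 by absolute moderated t, plus genes of marker lists whose summed level is given and the 5 genes nearest in profile to the member with the smallest adjusted p. Tyrobp, Itgb2, Csf2rb2 and Spi1 were named after their values were seen. Two-sided limma fits were repeated with other pseudocounts, filters, normalization, priors and probe set summaries, and without each array.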

Additional observations from a re-analysis of the deposited data

How the results depend on the processing

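Marco passed under all 11 alternatives tried (log2 difference 1.36 to 2.01, limma adjusted p = 4.01e-05 to 0.0282), and Msr1, Olr1, Cd36, Gpnmb, Plet1 and Atp6v0d2 passed under none of them, with their directions kept. Without single arrays, 1 to 2 of the 9 genes and 1 to 2 of their probe sets passed. Of the 9 genes, 1 passed with a pseudocount of 1 and 1 with no filter on low genes. With the mean of all probe sets 1 of 8 passed, as Trem2 then lay under the level filter and gave no value. Of the 16 probe sets tested, 0 passed with a pseudocount of 1 by limma (5 at an unadjusted p under 0.05) and 3 with the robust, intensity-dependent prior. The main Marco probe set thus missed the threshold over probe sets with a pseudocount of 1. The 11 alternatives given above for Marco are fits over genes. Over all genes, 220 passed, against 103 with a pseudocount of 1, 360 with 64, 69 with no filter and 384 with the robust, intensity-dependent prior. With the replicate number as a block 188 genes and 2 of the 9 passed, and beside the calls named above it changed no other call of a gene named. Atp6v1e1, a pump subunit at 0.33, turned to -0.22 with the mean of its probe sets (limma adjusted p = 0.284 and 0.660). With a pseudocount of 1, and also with no filter, the calls of Clec7a, Cd163, Scara3, Scara5, Lpcat2, Csf2rb, Itgb7, C1qb, Fcgr1, Ltf, Cd3g and Nkg7 were lost. With the mean of all probe sets those of Scara5, Lpcat2, Csf2rb and Fcgr1 were lost, and after quantile normalization those of Cd163 and Ltf. F13a1, Adipoq, Fabp4 and Retn missed the threshold with no filter (0.0516 for F13a1), and Retn also with a pseudocount of 64 (0.0560). Of the 8 muscle genes 6 fell with no filter. The cause of these changes was not tested. Signals near the bottom of the scale, such as Trem2 in wild type, limit what a fold change can show.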
